A study of Mus musculus with 10 samples.

Results

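Ccr8 encodes C-C motif chemokine receptor 8, and it was 1 of the 54532 genes counted in 10 RNA-seq libraries of sorted mouse colon regulatory T cells (Tregs). It was chosen for the difference in its reads between the 2 groups of libraries, so that difference is described here and was not tested. The gene was found by its symbol in the count table, where its identifier is ENSMUSG00000042262. The 5 Tumor libraries came from colon tumours of Apc Min/+ mice that also carried Foxp3 DTR, and the 5 WT libraries came from Foxp3 DTR mice with a wild-type genotype, labelled as colon. All 10 samples were from males of strain C57BL/6, aged 16 weeks, and no drug or other treatment is named for any of them. Min is a truncating allele of the tumour suppressor Apc that gives heterozygous mice intestinal adenomas, and Foxp3 DTR places a diphtheria toxin receptor under the control of Foxp3, so both groups carried the modified Foxp3 locus. The sort took GFP-positive cells that also bore CD45, CD3, CD4 and CD25, and libraries were made by Smart-seq2, which amplifies full-length cDNA from few cells. Nothing in the labels says that the libraries within a group stem from different mice; if they do not, the p-values below measure only technical spread.

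Chemokine receptors are G protein-coupled receptors that steer migrating leukocytes along gradients of secreted chemokines. CCR8 signals through inhibitory G proteins, is bound in mice by the chemokines CCL1 and CCL8, and is found on T helper type 2 cells, skin-homing T cells, some innate lymphoid cells and a subset of Tregs. In tumours it is best known as a surface marker of the activated, clonally expanded Tregs of the tumour tissue, and antibodies against it have been developed to deplete those cells.

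In the mm10 coordinates of the count table, Ccr8 lies on the plus strand of chromosome 9 from base 120092114 to base 120094906. The GENCODE M21 annotation gives the same ends and 2 exons, of 75 and 1100 bases, which add up to the 1175 bases of the table's gene model. Exon 1 is untranslated, and the whole coding sequence lies in exon 2, from 120093821 to 120094879. The bases just before exon 1 are shown because transcription factor genes are among those compared below. They are the upstream part of the RefSeq promoter window (GRCm38.p6, chr9:120091883-120092113, plus strand), with motif matches in capitals.
Ccr8 promoter: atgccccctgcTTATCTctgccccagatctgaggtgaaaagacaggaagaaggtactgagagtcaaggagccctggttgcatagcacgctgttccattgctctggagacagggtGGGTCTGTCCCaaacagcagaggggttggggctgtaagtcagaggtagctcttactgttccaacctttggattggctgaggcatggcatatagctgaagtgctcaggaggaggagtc
The search covered both strands of the full RefSeq window, 250 bases before and 50 bases after the RefSeq start at 120092133, and the motifs were chosen after expression values had been seen. The GATA motif AGATAA matched once, on the minus strand with its first base at -239, and 11.2% of 32851 promoter windows of the same length held it. An NF-kB motif (GGG and CC with 5 free bases between) matched at -136 on the plus strand and, overlapping it, at -135 on the minus strand, and 50.8% of windows held it. The letters of 6 other motifs were not in the window. The AP-1 motif TGANTCA was in 7.81% of all windows and the Runx motif TGTGGT in 16.8%. The forkhead motif TGTTTAC was in 3.65%, and the TATA motif TATAAA in 13.6%. A STAT motif (TTC and GAA with 3 free bases between) was in 8.30%, and an IRF motif (a repeat of GAAA with 2 free bases between) in 3.44%.

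The libraries held 3054435 to 7747699 counted reads in Tumor and 1676229 to 8412887 in WT. The WT libraries stood apart in several ways. Summed epithelial markers reached 28900 and 37030 CPM (counts scaled to the library total) in WT 1 and WT 2, against 191 to 387 in WT 3 to 5 and 45.5 to 5433 in Tumor. Gm10800, a predicted gene, held 9.92%, 22.3% and 26.5% of the counts of WT 3, 4 and 5, and 0.844% to 5.77% in the other 7 libraries. Summed plasma cell markers reached 3526 CPM in WT 3, against 50.1 to 328 in the other WT libraries and 57.6 to 413 in Tumor. The sums of mast cell and basophil markers (373.5 CPM) and of B cell markers (216 CPM) were also highest in WT 3. The sorted identity was checked with Foxp3, which encodes the defining Treg transcription factor. Reads on 1740 genes for odour and pheromone receptors (Olfr, Vmn1r and Vmn2r), which serve sensory neurons, gave a background per base in each library. Foxp3 had 285, 259, 910, 208 and 387 reads in Tumor 1 to 5, where 15.6 to 35.5 were expected from that background. In WT 1 to 5 it had 40, 28, 14, 109 and 52 reads against an expected 39.2, 35.5, 35.9, 25.5 and 30.9. Per kilobase, 35.3%, 42.0%, 39.6%, 4.54% and 14.3% of the background genes were at or above Foxp3 in WT 1 to 5, and at most 1.90% in any Tumor library, so Foxp3 was within the spread of the background in WT 1, 2, 3 and 5. The genes of the CD3 complex (Cd3d, Cd3e, Cd3g and Cd247), the signalling part of the T cell receptor, had 348, 1629, 722, 1157 and 294 reads in WT 1 to 5 against an expected 142, 129, 131, 92.5 and 112. They had 6171 to 17769 reads in Tumor. From sorted bulk samples, fewer cells of a type and less RNA per cell cannot be told apart.

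Ccr8 had 495, 509, 1801, 649 and 332 reads in Tumor 1 to 5, and 0, 26, 0, 13 and 4 reads in WT 1 to 5. Every Tumor library was above every WT library. After scaling by the trimmed mean of M values (TMM), these were 139, 211, 292, 115 and 76.2 CPM in Tumor and 0, 3.59, 0, 4.73 and 1.81 CPM in WT. Tumor 3 was the highest and Tumor 5 the lowest of their group. The group means were 167 ± 85.7 CPM in Tumor and 2.03 ± 2.12 CPM in WT (SD, n = 5 each), and the log2 difference fitted by edgeR was 6.31 ± 0.94 (SE). Scaling to 14 genes that T cells share, called pan-T scaling here, gave a smaller log2 difference of 3.24 ± 1.06 (SE). With WT 1 and 2 left out the TMM value was 6.19, and with WT 3 to 5 left out it was 6.34. In the same fit 340 of 21414 genes were called in either direction (1.59%), and 937 genes (4.38%) had every Tumor library above every WT library, as Ccr8 did. Ccr8 was chosen on this contrast, so nothing is read from its place among them.

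**Figure D1:**
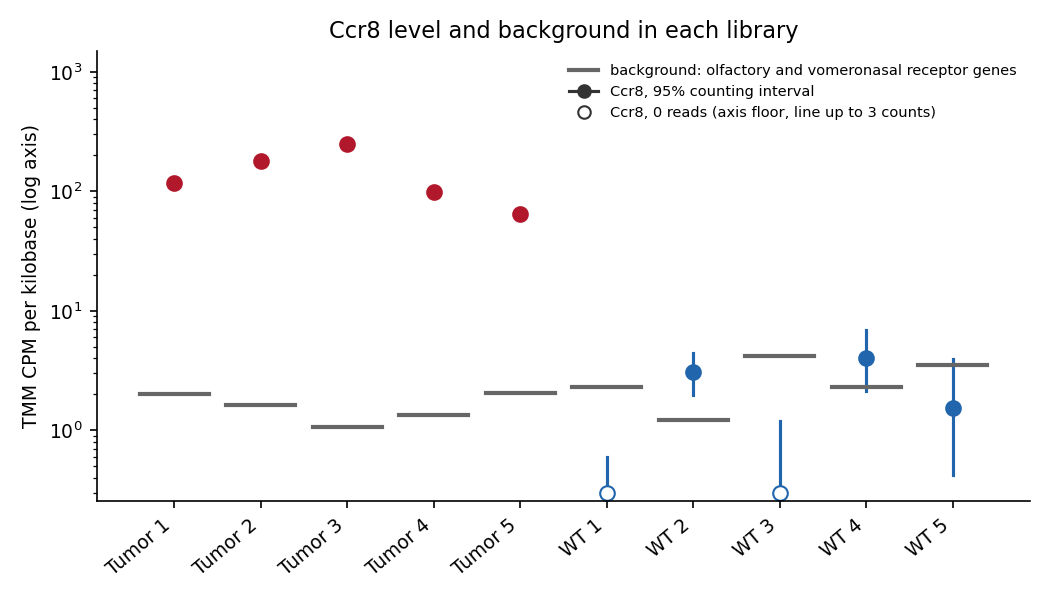
Ccr8 in each of the 10 libraries as TMM CPM per kilobase of gene model on a log axis. Points are single libraries with their 95% counting interval, open circles are libraries with 0 reads drawn at the axis floor with a line up to 3 counts, and grey bars are the background from the odour and pheromone receptor genes. The Tumor points lie at 64.8 to 249, far above the background bars (1.06 to 2.04), whereas in WT the background bars (1.23 to 4.23) lie in the same range as the points, of which the highest is 4.03.

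The WT values of Ccr8 rest on 43 reads in all. WT 1 and WT 3 had none, which allows levels of up to 0.702 and 1.41 CPM (3 counts, counting error only). The exact 95% Poisson intervals were 17.0 to 38.1 reads for WT 2, 6.92 to 22.2 for WT 4 and 1.09 to 10.2 for WT 5. From the background genes, 11.5, 10.4, 10.6, 7.50 and 9.10 reads were expected on a gene of this length in WT 1 to 5, or 49.2 in all. The background is uneven from gene to gene, and 10.3%, 17.8% and 51.0% of the background genes were at or above Ccr8 per kilobase in WT 2, 4 and 5. The reads in WT 2 and WT 4 thus exceeded the mean background but lay within its spread over genes, and Ccr8 expression clear of that spread was not detectable in WT at this depth. In Tumor 3786 reads stood against 40.1 expected, and at most 0.0575% of the background genes reached Ccr8 in any Tumor library.

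Ratios within a library do not depend on how libraries are scaled. There were 1.74, 1.97, 1.98, 3.12 and 0.858 Ccr8 reads per Foxp3 read in Tumor 1 to 5, a mean of 1.93 ± 0.807 (SD, n = 5). In WT 1 to 5 the ratio was 0, 0.929, 0, 0.119 and 0.0769, a mean of 0.225 ± 0.397. The groups overlapped, since WT 2, with 26 Ccr8 reads and 28 Foxp3 reads, was above Tumor 5. Corrected for the lengths of the 2 gene models, Tumor libraries held 2.91 to 10.6 times as much Ccr8 as Foxp3 per base. With 0.5 added to both counts, the mean log2 ratio of Ccr8 to Foxp3 was higher in Tumor by 4.41. Subtracting the background from both genes, with negative results set to 0 before 0.5 was added, lowered this to 2.06. Foxp3 was thereby set to 0 in WT 2 and WT 3, and Ccr8 in WT 1, WT 3 and WT 5. In those libraries the ratio depends on the added 0.5. In WT 1, 2, 3 and 5 both terms of the ratio lay within the spread of the background, and in WT 4 the Ccr8 term did.

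Per 100 CD3 gene reads there were 7.42, 8.25, 10.1, 6.03 and 4.19 Ccr8 reads in Tumor 1 to 5, and 0, 1.60, 0, 1.12 and 1.36 in WT 1 to 5. Here the groups did not overlap, and the means were 7.20 ± 2.25 and 0.816 ± 0.763 (SD, n = 5 each). Relative to its mean, Ccr8 varied less over the Tumor libraries against CD3 (coefficient of variation 31.2%) than against Foxp3 (41.8%); this difference was not tested. If Ccr8 had stood to CD3 in WT as it did in the median Tumor library, 25.8, 121, 53.6, 85.9 and 21.8 reads would have fallen on it in WT 1 to 5, and 0, 26, 0, 13 and 4 did. Counting only the CD3 reads above background, a calculation added after the values were seen, the expected numbers were 15.2, 111, 43.8, 78.9 and 13.5. These numbers restate the ratio in reads, on the values Ccr8 was chosen for, and were not tested. Of the CD3 genes themselves, Cd3g (log2 difference 3.78 ± 0.73, SE, edgeR adjusted p = 0.0153), Cd247 (3.29 ± 0.66, adjusted p = 0.0176) and Cd3d (3.25 ± 0.80, adjusted p = 0.0460) rose in Tumor, and Cd3e (2.15 ± 0.62, adjusted p = 0.0895) was not called.

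**Figure D2:**
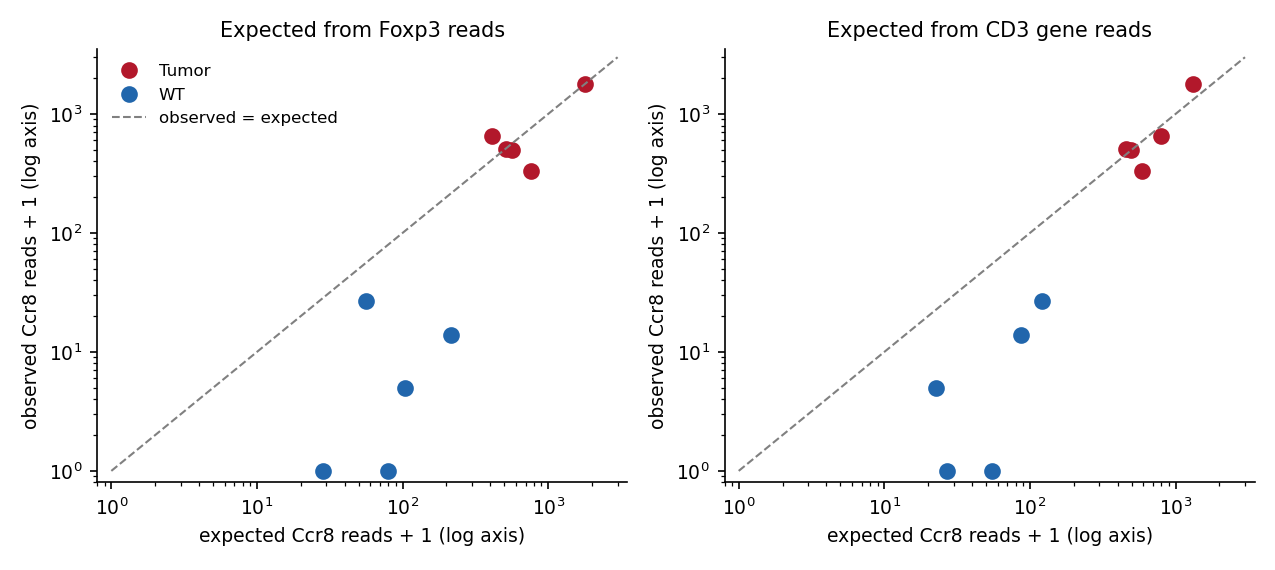
Observed Ccr8 reads against the reads expected from the median Tumor ratio of Ccr8 to Foxp3 reads (left) and to CD3 gene reads (right), with 1 point per library, 1 added to both axes and both axes logarithmic. The dashed line marks equality. The Tumor points set the ratio and scatter around the line, and all 5 WT points (0, 26, 0, 13 and 4 observed reads) lie below it in both panels.

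Some macrophage markers moved with the groups in the same direction as Ccr8. Of 12 listed, 11 were tested and 5 rose in Tumor (Lyz2, C1qa, C1qb, C1qc and Apoe, against 1.37% of all genes, edgeR). All 11 log2 differences were positive, with a median of 2.48. The 6 not called ran from Adgre1 and Mrc1 (0.18 each) to Cd68 (2.48, edgeR adjusted p = 0.0529). Under pan-T scaling Lyz2, C1qa, C1qb and Apoe were still called higher and 3 were called lower, against 0.0841% and 91.8% of all genes. The sum over the 12, carried mostly by Apoe and Lyz2, was 1319, 4833, 1448, 2009 and 6015 CPM of the library total in Tumor 1 to 5 and 68.2 to 163 in WT. Within Tumor the order differed, since Tumor 5 had the highest macrophage sum and the lowest Ccr8 level and Tumor 3 had a macrophage sum of 1448 and the highest Ccr8 level. Markers of type 2 T cells and innate lymphoid cells, other cells that can carry CCR8, summed to 1187 to 1882 CPM in Tumor and 95.6 to 339 in WT over 10 genes. The Tumor sum was carried mostly by Areg, Gata3 and Il1rl1 (means of 1112, 248 and 235 TMM CPM), which Tregs also express. The others had Tumor means of 1.97 (Il9) to 57.2 (Arg1) TMM CPM, and their groups overlapped. Of these, Il4, Il9 and Il13 had lower means in Tumor than in WT, and Il5, Ptgdr2, Il17rb and Arg1 had higher ones. CD8 T cell markers summed to 7.51 to 81.8 CPM in Tumor and 2.97 to 64.5 in WT. No list had a gene without reads in all Tumor libraries, and the part of these cells in the Ccr8 reads was not tested.

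Among 23 chemokine receptor genes, Ccr8 took 7.43%, 8.46%, 9.50%, 5.34% and 6.36% of the receptor reads in Tumor 1 to 5 and 0%, 2.12%, 0%, 0.735% and 0.792% in WT 1 to 5. Per kilobase of gene model, it ranked second in Tumor 1, 3, 4 and 5 and first in Tumor 2. Its mean level in Tumor was 142 ± 72.9 CPM per kilobase, after Cxcr6 at 207 ± 92.1 (SD, n = 5). CXCR6 guides T cells to sites that display CXCL16. Next came Ccr2, a receptor for monocyte chemoattractants, at 79.2 ± 35.4, Ccr7, which guides cells to lymph nodes, at 73.7 ± 43.5, Ccr1, a receptor for inflammatory chemokines, at 72.0 ± 23.6, and Cxcr4, the receptor for CXCL12, at 71.3 ± 17.4. The ranges of Cxcr6 (123 to 334 CPM per kilobase), Ccr8 (64.8 to 249) and Ccr2 (35.0 to 134) overlapped, so neighbours in this order did not stand apart beyond their spread. In WT the mean of Ccr8 was 1.73 ± 1.81 CPM per kilobase, and Ccr7 led at 29.8 ± 36.7.

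Of the other 22 receptor genes, 19 were tested, 5 rose in Tumor, 1 fell and 13 were not called (edgeR quasi-likelihood test with Benjamini-Hochberg adjustment over all 21414 genes, adjusted p below 0.05). Over all genes 1.37% were called higher and 0.219% lower. The median log2 difference of the 19 was 1.88 against -0.20 for all genes, and under pan-T scaling, which moved the median of all genes to -3.71, it was -1.29 with 1 called higher and 5 lower. Under pan-T scaling 0.0841% of all genes were called higher and 91.8% lower. Ccr1 rose by 4.60 ± 0.75 on the log2 scale (SE, adjusted p = 0.00612), and its 5 Tumor libraries (114 to 265 TMM CPM) lay above all WT libraries (0.469 to 20.7). Cxcr6 rose by 4.52 ± 0.87 (adjusted p = 0.0153), from 2.27 to 40.8 TMM CPM in WT to 237 to 645 in Tumor, and it was the 1 receptor still called higher under pan-T scaling (1.80 ± 0.76, adjusted p = 0.0276). Cxcr3, a receptor of type 1 T cells, rose by 4.01 ± 0.75 (adjusted p = 0.0130). Ccr6, the receptor for CCL20, rose by 3.38 ± 0.71 (adjusted p = 0.0215) although its groups overlapped. Cxcr4 rose by 3.01 ± 0.74 (adjusted p = 0.0439), and Ackr4, a scavenging receptor that takes up CCL19, CCL21 and CCL25, fell by 4.32 on the log2 scale (SE 1.06, adjusted p = 0.0441). Ccr2 (3.11 ± 0.82, adjusted p = 0.0605) and Ccr7 (1.31 ± 0.86, adjusted p = 0.456, and -1.29 under pan-T scaling) were not called. The call of Ccr1 held without any 1 of the 10 libraries, that of Cxcr3 in 9 of those 10 fits, Cxcr6 in 8, Ccr6 in 6, and Cxcr4 and Ackr4 in 1 each. The count of 6 receptors fell to 3 without Tumor 1 or Tumor 2, to 2 without Tumor 3 and to 1 without WT 1.

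**Figure D3:**
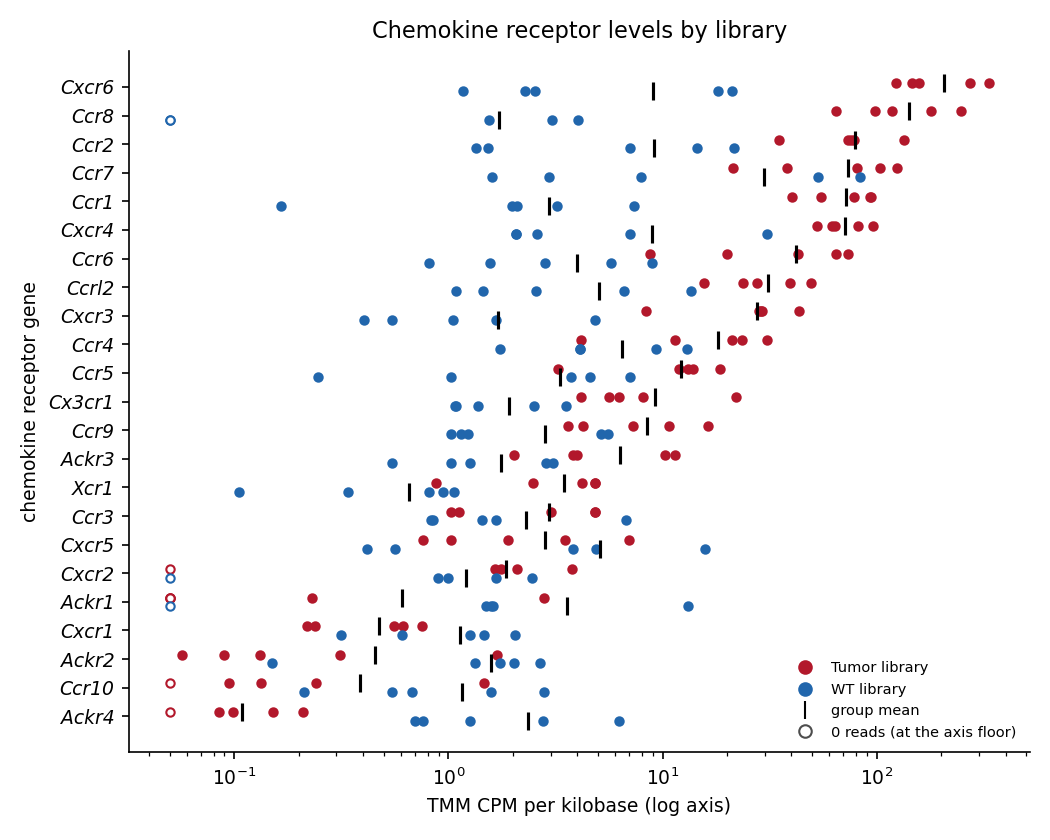
TMM CPM per kilobase of 23 chemokine receptor genes on a log axis, with 1 point per library, black ticks at the group means and open circles for libraries with 0 reads, drawn at the axis floor. Cxcr6 (207) and Ccr8 (142) have the highest Tumor means, and the WT mean of Ccr8 is 1.73.

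The ligands of CCR8 gave fewer reads than Ccr8 in each Tumor library, before any correction for gene length. Per base the order reversed for Ccl8 in Tumor 5, with 211 reads on 511 bases against 332 Ccr8 reads on 1175 bases. Ccl1, made by activated T cells and macrophages, had 14, 0, 23, 148 and 136 reads in Tumor 1 to 5 and 8, 14, 5, 18 and 11 in WT 1 to 5. Ccl8, made mainly by macrophages, had 28, 54, 68, 1 and 211 reads in Tumor and 17, 9, 1, 22 and 6 in WT. For both ligands the groups overlapped. The Ccl8 gene model has only 511 bases, and per kilobase Ccl8 averaged 35.2 ± 36.8 CPM in Tumor and 6.43 ± 5.80 in WT (SD). Ccl1 averaged 5.50 ± 6.13 and 1.49 ± 0.89 CPM per kilobase. In Tumor the mean of Foxp3 was 23.1 ± 10.1 CPM per kilobase and the background was 1.06 to 2.04. Neither was called, with log2 differences of 1.89 ± 1.07 for Ccl1 (SE, adjusted p = 0.389) and 2.44 ± 1.05 for Ccl8 (SE, adjusted p = 0.263) in the edgeR test, and both values were negative under pan-T scaling (-1.17 and -0.79).

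Of 24 genes that carry or limit the signal of chemokine receptors (G proteins, arrestins, kinases, RGS proteins and Rac proteins), 5 rose in Tumor and 19 were not called, against 1.37% of all genes higher. Their median log2 difference was 1.64, and -1.73 under pan-T scaling, where 10 were called lower, against 91.8% of all genes and an all-gene median of -3.71. Arrb2, the arrestin that uncouples activated receptors, rose by 2.85 ± 0.56 (log2, SE, edgeR adjusted p = 0.0153), and Gng2, a G protein gamma subunit, rose by 2.81 ± 0.63 (adjusted p = 0.0297), while both were slightly negative under pan-T scaling (-0.24 and -0.15). Rac2, a small GTPase of blood cells that drives migration, rose by 3.70 ± 0.81 (adjusted p = 0.0274). Rgs2 and Rgs1, which shorten G protein signals, rose by 4.07 ± 0.91 (adjusted p = 0.0297) and 3.39 ± 0.82 (adjusted p = 0.0411). The count of 5 fell to 1 without Tumor 1 or Tumor 4, to 3 without Tumor 5 or WT 3, and to 0 without Tumor 2, Tumor 3 or WT 1. At an unadjusted p under 0.05, 14, 14 and 13 of the genes passed in those last 3 edgeR fits, and with all libraries DESeq2 and limma voom each called 11.

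Of 24 genes often named beside Ccr8 in tumour Tregs, all but Layn were tested, 9 rose in Tumor and 14 were not called, against 1.37% of all genes higher. The list was put together with results of these data known, so it is no independent evidence of direction. Its median log2 difference was 2.92, and 0.0087 under pan-T scaling, where 3 were called higher and 3 lower, against 0.0841% and 91.8% of all genes. Of the 23 tested, 21 log2 differences were positive. Cd177 (-2.12 ± 0.96, SE, edgeR adjusted p = 0.291) and Gcnt1 (-0.44 ± 0.68, adjusted p = 0.776) were negative and not called. Layn averaged 0.808 TMM CPM in Tumor and 6.10 in WT. Tnfrsf9, which encodes the costimulatory receptor 4-1BB, was at 1788, 1859, 2000, 1115 and 894 TMM CPM in Tumor 1 to 5 and at 4.91, 20.4, 10.8, 85.9 and 17.7 in WT 1 to 5. The groups did not overlap, and it rose by 5.78 ± 0.95 (log2, SE, edgeR adjusted p = 0.00612). Pdcd1, which encodes the inhibitory receptor PD-1, rose by 5.27 ± 0.90 (adjusted p = 0.00728), and Klrg1, a marker of differentiated effector lymphocytes, rose by 4.98 ± 0.89 (adjusted p = 0.00929). These 3 genes were also called higher under pan-T scaling. Tigit, an inhibitory receptor, rose by 3.94 ± 0.69 (adjusted p = 0.00842) and Il1r2, the decoy receptor for interleukin 1, by 4.32 ± 0.82 (adjusted p = 0.0142). The calls of Tnfrsf9, Pdcd1, Klrg1 and Tigit held without any 1 of the 10 libraries, and that of Il1r2 in 7 of the 10 fits. The count of 9 fell to 5 without Tumor 1 and to 4 without Tumor 2, Tumor 3 or WT 1.

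Of 24 transcription factor genes of Tregs and effector T cells, 5 rose in Tumor and 19 were not called, against 1.37% of all genes higher. Their median log2 difference was 1.46, and -1.74 under pan-T scaling, where 12 were called lower, against 91.8% of all genes and an all-gene median of -3.71. Prdm1, which encodes the effector Treg factor Blimp-1, rose by 2.92 ± 0.57 (log2, SE, edgeR adjusted p = 0.0157), Nfkb2, an NF-kB subunit, rose by 2.15 ± 0.52 (adjusted p = 0.0413) and Ikzf4, a partner of Foxp3, rose by 2.17 ± 0.52 (adjusted p = 0.0417); under pan-T scaling these 3 were negative, at -0.53, -1.35 and -1.21. Id2, an inhibitor of E proteins, rose by 3.91 ± 0.79 (adjusted p = 0.0181), and Gata3, the GATA factor of type 2 and tissue T cells, rose by 3.33 ± 0.74 (adjusted p = 0.0283). Foxp3 itself had a log2 difference of 2.48 ± 0.64 and was not called (adjusted p = 0.0560). The count of 5 fell to 1 without Tumor 1, to 3 without Tumor 5 or WT 2, and to 0 without Tumor 2, Tumor 3, Tumor 4 or WT 1. At an unadjusted p under 0.05, 12, 11, 14 and 11 of the factors passed in those last 4 edgeR fits, and with all libraries DESeq2 and limma voom each called 9.

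The genes whose level followed Ccr8 most closely were ranked by the SD, over libraries, of the log2 ratio of the gene to Ccr8, where 0 means a fixed ratio. Genes averaging 10 CPM or more entered. Over all 10 libraries this measure mainly reads the group difference by which Ccr8 was chosen, and so it is a description. Of 13657 genes, Tnfrsf9 was the closest, with an SD of 0.63 where the median gene had 3.70. There were 12.9, 8.82, 6.84, 9.68 and 11.7 Tnfrsf9 reads per Ccr8 read in Tumor 1 to 5, and 5.69, 18.2 and 9.75 in WT 2, 4 and 5. Next came Pdcd1 (SD 0.93), Cst7 (1.04), which encodes cystatin F, a protease inhibitor of lymphocytes, Il1r2 (1.05), Ctla2a (1.07), Ccr1 (1.09), the fatty acid binding protein gene Fabp5 (1.10), Rapsn (1.13), Klrg1 (1.18) and C1qb (1.20). C1qb encodes a complement subunit made by macrophages and is on the macrophage list given above. Foxp3 was 309th with an SD of 2.31, and the CD3 genes lay between Cd247 (1.71, 56th) and Cd3e (2.51, 491st). With a prior count of 0.5 in place of 2, 5 of the 10 genes remained in the top 10, without WT 3 there were 4 and without WT 1 there were 6.

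**Figure D4:**
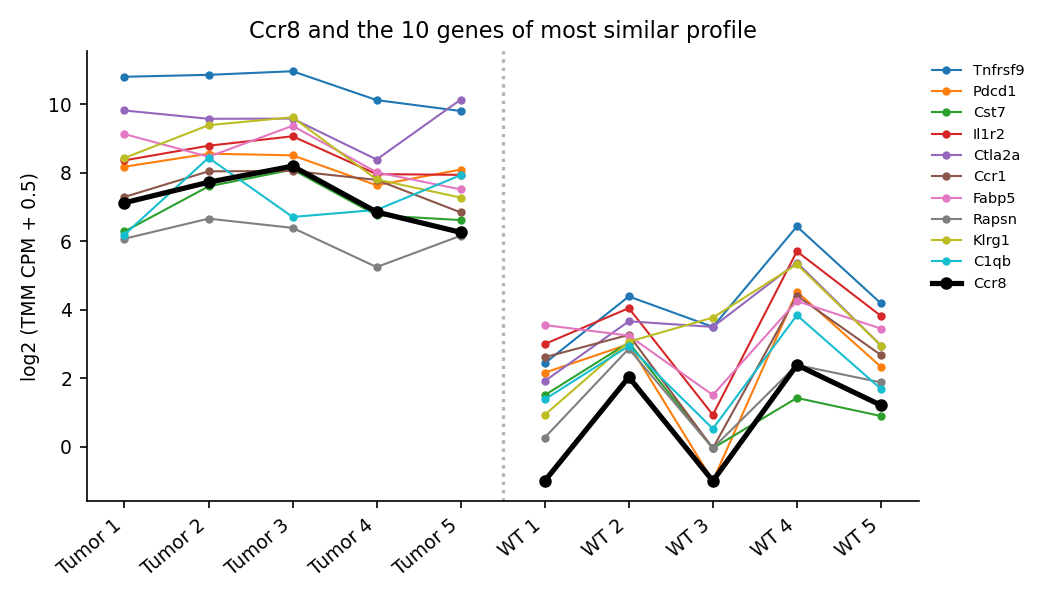
log2 TMM CPM (with 0.5 added) of Ccr8 in black and of the 10 genes most like it over all libraries, by library. The lines join the points of a gene within a group and imply no order of the libraries. In Tumor Ccr8 lies between 76.2 and 292 CPM and Tnfrsf9, the closest gene, runs above it in every library.

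Within the 5 Tumor libraries the group difference plays no part. The SD of log2 CPM of Ccr8 over them was 0.75, and 47.5% of 11916 genes had a larger one, so Ccr8 varied about as much as the median gene (0.73). The closest genes were Pfkl (SD of the log2 ratio 0.018), which encodes a glycolytic enzyme, Ube2j1 (0.12), Tmem173 (0.12), which encodes the DNA-sensing adaptor STING, Slc50a1 (0.13), Nrd1 (0.14), Syt11 (0.14), Lbh (0.14), Slc38a10 (0.16), Mynn (0.16) and Ahsa1 (0.16). None of these 10 was among the 10 closest over all libraries, and leaving out 1 Tumor library left 1 (without Tumor 3 or Tumor 5), 3 (without Tumor 2 or Tumor 4) or 4 (without Tumor 1) of them in the top 10. With 5 libraries and 11915 genes such a ranking has little precision. In Tumor, Klrg1 (0.30, 130th), Il1r2 (0.30, 140th), Ctla4 (0.32, 166th), Il2ra (0.36, 262nd) and Tnfrsf9 (0.36, 263rd) stayed below the 5th percentile of all genes (0.44), whereas Foxp3 (0.67, 2524th) did not. Among other genes looked up, Cd4 (0.40, 441st) was also below it. Penk (0.74, 3441st), Actb (0.48, 835th), B2m (0.79, 4044th) and the CD3 genes (0.45 to 0.54) were above it. Of the 10 genes closest over all libraries, 5 were below that percentile in Tumor (Tnfrsf9, Cst7, Il1r2, Ccr1 and Klrg1) and 5 above it: Fabp5 (0.46, 726th), Pdcd1 (0.56, 1407th), Rapsn (0.66, 2471st), Ctla2a (1.03, 6477th) and C1qb (1.26, 8245th). Ctla4, Il2ra, Cd4, Penk, Actb and B2m are given here for their roles and were picked after their values were seen.

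Gm47050, an annotated transcript still to be experimentally checked (type TEC), starts 756 bases after the end of Ccr8 on the same strand, from 120095663 to 120097838. It had 178, 145, 590, 231 and 184 reads in Tumor 1 to 5 and 48, 40, 24, 60 and 9 in WT 1 to 5. Tumor 3 was the highest for it as for Ccr8, and the groups did not overlap. It rose by 2.42 ± 0.57 (log2, SE, edgeR adjusted p = 0.0364), but the value was -0.97 under pan-T scaling and the call held in 2 of the 10 fits without 1 library. In Tumor there were 0.360, 0.285, 0.328, 0.356 and 0.554 Gm47050 reads per Ccr8 read, an SD of the log2 ratio of 0.36, which placed it 273rd of 11915 genes. In WT 2, 4 and 5 there were 1.54, 4.62 and 2.25, and WT 1 and WT 3 had no Ccr8 reads. Over all 10 libraries the SD was 2.48, which placed Gm47050 460th of 13657 genes. Background alone would put 21.4, 19.3, 19.6, 13.9 and 16.9 reads on Gm47050 in WT 1 to 5. The last 30 bases of its model are shown because they hold a polyadenylation signal (capitals), the motif that directs cleavage at the 3′ end of a messenger RNA.
Gm47050 end: gacaAATAAAgaattgttctgcatgttttt
The last 50 bases of the Ccr8 model, which ends 27 bases after its coding sequence, held neither AATAAA nor ATTAAA. Of 58797 protein-coding transcript models 50.2% held 1 of them there, and of 3296 TEC models 29.0% did. The end motifs were looked for after the counts of Gm47050 had been seen. Whether the counting used strand is not given in the sources used here.

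Upstream, the nearest tested gene was Cx3cr1, the fractalkine receptor gene of macrophages and some T cells, on the minus strand 22234 bases away. It had 90, 240, 116, 159 and 159 reads in Tumor 1 to 5 and 21, 35, 24, 17 and 35 in WT 1 to 5. In TMM CPM the groups did not overlap, and the log2 difference of 2.28 ± 0.64 (SE, edgeR adjusted p = 0.0822) was not called. Its SD of the log2 ratio to Ccr8 over Tumor was 1.18, larger than that of Gm47050. Downstream of Gm47050, Slc25a38, a mitochondrial glycine carrier gene, had a log2 difference of -0.12 ± 0.64 (SE, edgeR adjusted p = 0.939) and overlapping groups. No other gene model overlapped Ccr8.

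**Figure D5:**
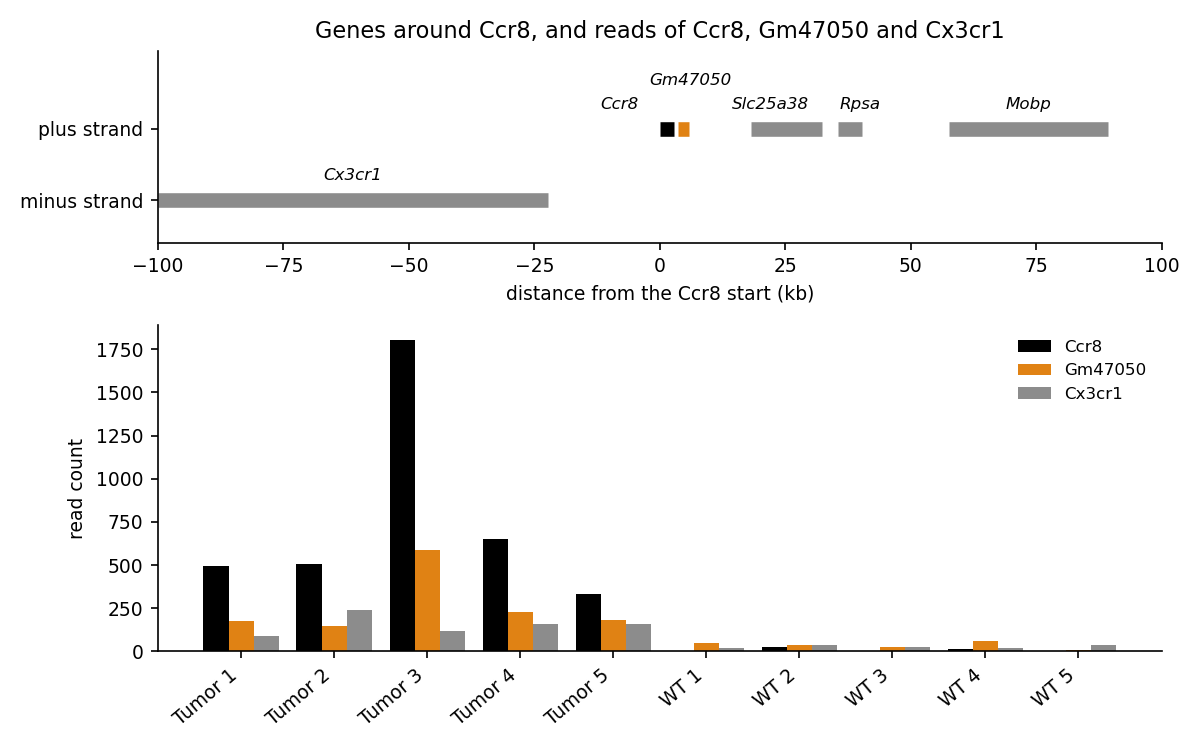
The upper panel shows Cx3cr1, Ccr8, Gm47050, Slc25a38, Rpsa and Mobp by strand, within 100 kb of the Ccr8 start. Other gene models there, such as Xirp1, are not drawn. The lower panel shows reads of Ccr8, Gm47050 and Cx3cr1 in each library. Gm47050 follows Ccr8 in the height of its Tumor 3 bar (590 reads beside 1801), and Cx3cr1 has its highest bar in Tumor 2 (240 reads).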

How the data were processed

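RNA of sorted colon Tregs was measured in 10 libraries, 5 Tumor and 5 WT, grouped by the sample titles. The deposited values are raw read counts per gene, made by the authors with HISAT2 2.0.5 and featureCounts 1.5.0-p3 on mm10, per the submitters' processing notes. The annotation release, strand setting and handling of multiply mapped reads are not given in the sources used here. The 10 sample tables held the same counts as the series table.

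The gene and all lists were chosen with earlier results of these data known. Genes passing filterByExpr were fitted with edgeR 4.0.16 (R 4.3.3; TMM, robust quasi-likelihood, group only), with Benjamini-Hochberg adjustment over 21414 genes and a threshold of 0.05; the fit was tested on simulated counts. Alternatives were RLE, no and pan-T scaling, DESeq2 1.42.0, limma 3.58.1 voom, other filters, added counts, a replicate block and left-out libraries. The distant-library check was limited to named genes after a wider run.

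Named genes were Ccr8, its ratio partners and ligands, the 5 highest and all called receptors, up to 5 genes of smallest p in each other list, the nearest tested neighbours and the 10 closest genes in each ranking; others were chosen after their values were seen. Sequences are from RefSeq and GENCODE M21. Poisson intervals cover counting error only. Amplified reads without molecular identifiers are not independent molecules. No 2 libraries agreed within sampling noise.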

Additional observations from a re-analysis of the deposited data

Results flagged for a closer look

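Over 17 measures of the named genes, 34 groups of 5 libraries were checked for 1 library far from the other 4 (Dixon's criterion, 0.71 for 5 values), and 4 had one. Chance gives about 1 in 20 groups if values are normally distributed. These CPM values and ratios include zeros and were not transformed, and the measures were limited after a wider run. The 4 groups can therefore not be judged against that rate. Ccr8 reads per Foxp3 read were 0.929 in WT 2, where the next highest WT library had 0.119. Cxcr4 was at 55.7 TMM CPM in WT 4 and at most 12.7 in the other WT libraries. Cxcr3 was at 8.37 TMM CPM in WT 4 and at most 2.90 in the others. Cx3cr1 was at 99.5 TMM CPM in Tumor 2 and at most 36.5 in the other Tumor libraries.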

How the results depend on the processing

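The log2 difference of Ccr8 was 3.24 under pan-T scaling and moved by less than its spread under the other 9 settings and the 10 fits without 1 library (range of those 10 fits 5.93 to 6.80). Counts below are given in the order all genes, chemokine receptors, tumour Treg genes, factors and signalling genes, where the reported ones are 340, 6, 9, 5 and 5. Factor and signalling counts were 3 and 3 with RLE factors and also with no composition factors, and 12 and 10 under pan-T scaling, where 19673 genes were called. DESeq2 called 1651, 10, 16, 9 and 11, voom called 14 tumour Treg genes, 9 factors and 11 signalling genes, and no filter gave 820, and 16, 9 and 9 of the last 3 lists. The filter of 10 CPM in 5 libraries left 3 factors. Without WT 1 and 2 there were 1993 genes and 13 signalling genes, and without WT 3 to 5 there were 1325, 12, 18, 17 and 10. Without 1 library at a time the counts ran from 65 to 417, 1 to 6, 4 to 11, 0 to 6 and 0 to 7. The cause of these shifts was not tested. Of the genes whose log2 difference is given, those that turned negative under pan-T scaling were Gng2 -0.15, Arrb2 -0.24, Ikzf4 -1.21, Prdm1 -0.53, Nfkb2 -1.35, Gm47050 -0.97, Ccl1 -1.17, Ccl8 -0.79, Foxp3 -0.86, Cd3e -1.22, Ccr4 -1.91, Ccr7 -1.29 and Cx3cr1 -1.25. Slc25a38, at -0.12, turned slightly positive with voom (0.0036), no filter (0.027), the replicate block (0.082) and without WT 1 and 2 (0.044), and ran from -0.64 to 0.37 without 1 library. With background subtracted, and negative results set to 0, the log2 ratio of Ccr8 to Foxp3 fell from 4.41 to 2.06. It was 3.54 with 2 added and 3.72 to 5.27 without 1 library. With no added count it was 3.13, a value that leaves out WT 1 and WT 3, which had 0 Ccr8 reads. The log2 ratio to CD3 reads was 3.81. It was 2.36 with no added count, again without WT 1 and WT 3. It was 2.89 with 2 added, 4.42 with background subtracted, and 3.10 to 4.24 without 1 library. Of the 10 genes closest to Ccr8 over all libraries, 5 were kept with a prior count of 0.5 and 4 to 10 without 1 library; over Tumor, 1 to 4 were kept without 1 library. The labels do not say that replicate numbers pair the samples. Same-numbered libraries had correlations of -0.19, -0.039, -0.13, -0.067 and 0.030, and none correlated best with its own number. These few values cannot exclude a pairing. With a replicate block 141 genes were called, with 2 factors and 3 signalling genes, and the Ccr8 value was 6.76. The WT values of Ccr8 rest on 43 reads, where 49.2 were expected from the background.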
